A study of Mus musculus with 6 samples.

Results

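The genes described here encode enzymes that build and recycle nucleotides and the folate enzymes that supply them with single-carbon units. They were taken from a fixed list of 37 symbols that was drawn up with earlier results of these data known. Of these, 36 were measured by probe sets that carry a single annotated symbol, among 18193 genes in all, and Impdh2 was not analysed here. Each gene is represented by its brightest probe set over the 6 arrays, and no gene was removed for a low signal.

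Expression was measured on Affymetrix arrays in mouse bone marrow cells sorted as Lin- (without markers of mature blood lineages) Sca1+ CD150+ CD48+, which the study calls committed progenitors. The double knockout (dKO) group carried MxCre together with floxed c-myc and N-myc alleles (c-myc f2 N-myc f2), and the control group carried the same floxed alleles without MxCre. MxCre is a Cre recombinase under the interferon-responsive Mx1 promoter, so deletion is not restricted to these cells and the transgene itself is present in the dKO mice only. Mice of either group were aged 8 weeks, had a mixed background and were given pI-pC, which induces interferon, on 2 days, with the last dose 3 days before the marrow was sampled. Each group has 3 arrays; a control array holds a pool of 2 mice and a dKO array a pool of 3. The comparison asks which transcripts differ once both Myc genes are deleted.

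Levels are log2 RMA values, the background-corrected and normalized brightness of a probe set, and log2 fold changes are dKO minus control. Myc stood between 10.47 and 10.95 in the control arrays and between 7.44 and 7.99 in the dKO arrays. The 3 probe sets of Mycn disagreed, with log2 fold changes of -5.27, -0.83 and 0.34, and their position relative to the deleted exons was not known from the sources used here. Of the genes that define the sort, Cd48 and Slamf1 (CD150) were detected in every array, between 11.09 and 11.69 and between 7.74 and 9.58, and the Sca1 gene was not analysed here. For control 1 the tissue label reads long-term stem cells, but it was sorted with the same gate and carries the same kind of title. Control 1 and dKO 1 showed Xist signal (9.10 and 10.50, against 5.03 to 5.86 in the other arrays), so the main counts are also given without both.

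Cells make purines and pyrimidines de novo from amino acids, bicarbonate, single-carbon units carried by folate, and phosphoribosyl pyrophosphate (PRPP), and they also recover bases and nucleosides by salvage. Purine synthesis builds the ring on PRPP up to inosine monophosphate (IMP), which is then turned into AMP and GMP, and pyrimidine synthesis leads to UMP and CTP. Ribonucleotide reductase then makes the deoxynucleotides of DNA. Several of these genes are textbook targets of MYC, which binds the E-box CACGTG together with MAX, and the demand for nucleotides is high in dividing progenitors.

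The E-box was searched for in the promoters of the members, taken from RefSeq (GRCm38.p6) as the 250 bases before and 50 bases after each annotated start; the motif reads the same on both strands. A promoter was listed for 34 of the 37 genes, and 5 of these (14.7%) held CACGTG, against 8.09% of the 27025 genes in the table. The windows of 30 bases printed here are those of Atic and Paics, which were lower in dKO, and of Tyms and Nme1, which did not pass the test, so that the 4 can be set beside their values below. The E-box is in capitals and each window is written 5′ to 3′ on the strand of its gene.
Atic (chr1:71557126-71557155, plus strand): gaggaggggcgggacctcggggtCACGTGg
Paics (chr5:76951087-76951116, plus strand): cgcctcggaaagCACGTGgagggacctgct
Tyms (chr5:30073669-30073698, minus strand): aaccacttctgtCACGTGggggcggggtct
Nme1 (chr11:93968273-93968302, minus strand): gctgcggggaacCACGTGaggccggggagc
The motif began 7 bases before the annotated start in Atic, 203 in Paics, 61 in Tyms and 18 in Nme1. Nme1 has a second annotated start that also has the motif, and Impdh2 held it 110 bases before its start. Among the 8 members that were lower in dKO, 2 had the motif, and among the 25 other measured members with a listed promoter, 2 had it. These are matches of letters in a window and were not tested as binding sites.

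Of the 36 measured members, 8 were lower in dKO and 0 were higher (limma, a linear model whose variances are moderated across genes; adjusted p under 0.05 over all genes). The share lower was 22.2%, against 2.85% of all genes called lower, and 3.12% of all genes were called higher. At an unadjusted p under 0.05, 16 members were lower and 1 was higher, against 9.14% of all genes lower and 9.1% higher. Without the moderated variance 0 members passed, and of all genes 24 were lower and 46 higher. The 8 were Dctd, Adk, Gart, Atic, Mthfd1, Aprt, Shmt2 and Paics. All 3 dKO arrays lay below all 3 control arrays for 17 members (47.2%, against 10.7% of all genes) and above them for 1, against 12.7% of all genes. The median log2 fold change was -0.33, against 0.05 for all genes, and 25 members (69.4%) had a negative value, against 42.4% of all genes. The number lower was 4 without control 1, 3 without control 2 or control 3, 5 without dKO 1 or dKO 2, and 3 (Adk, Dctd and Mthfd1) without control 1 and dKO 1 together. Adk, Dctd and Atic passed with each single array left out in turn.

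**Figure D1:**
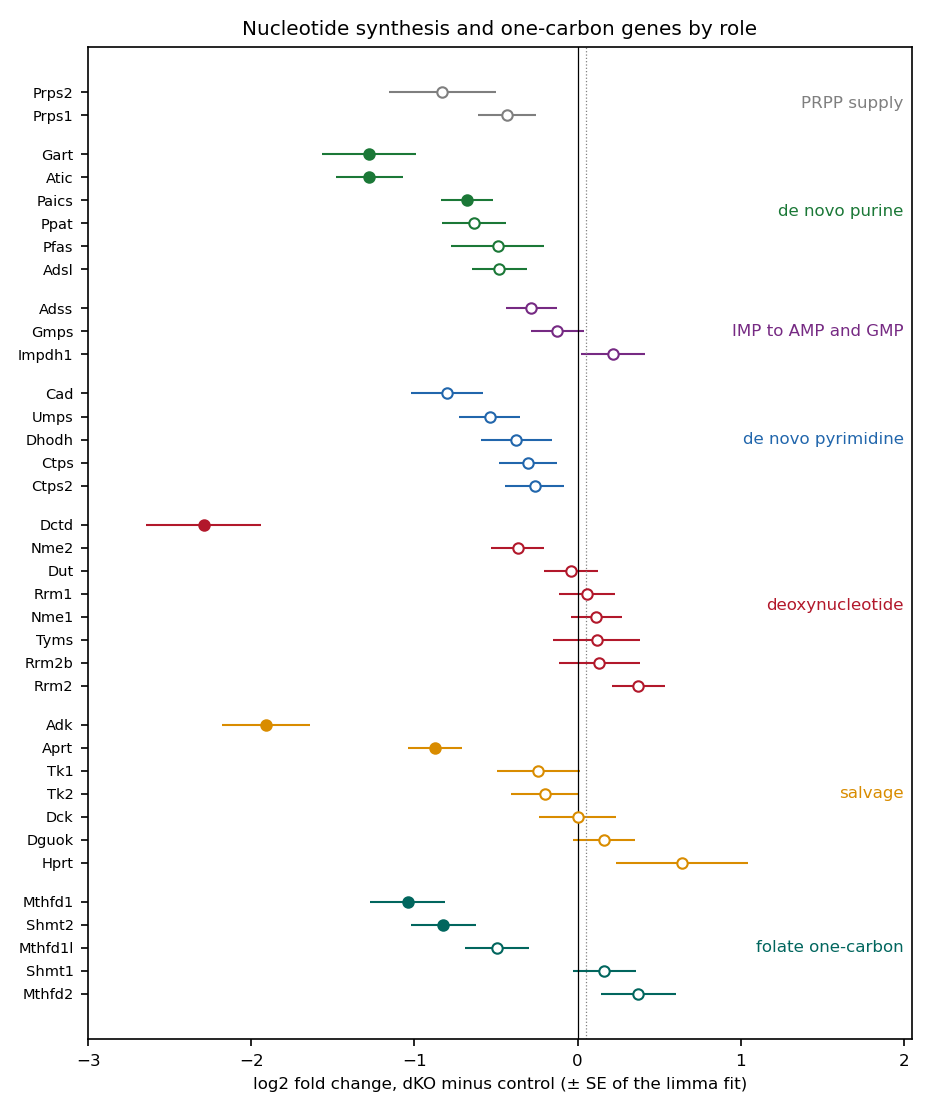
Log2 fold change of each of the 36 measured genes (dKO minus control, horizontal axis) with its standard error from limma, grouped by role in the pathway. Filled points passed the test and open points did not; the dotted line is the median of all genes (0.05). All 6 de novo purine genes and all 5 de novo pyrimidine genes lie left of 0, while 5 of the 8 deoxynucleotide genes lie right of it.

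Of the 6 genes of the de novo purine steps from PRPP to IMP, 3 fell (50%, against 2.85% of all genes). The other 3 had negative log2 fold changes that did not pass. The median log2 fold change was -0.66, with a range from -1.28 to -0.48. For 5 of the 6 genes (83.3%) all dKO arrays lay below all control arrays, against 10.7% of all genes. Atic encodes the enzyme of the last steps, which close the ring and form IMP. It stood at 10.29, 9.91 and 10.29 in the control arrays and at 8.58, 9.12 and 8.95 in the dKO arrays. It fell by 1.28 ± 0.20 (SE), or 2.42-fold (adjusted p = 0.00681), and its other probe set fell by 1.29. The lowest control array lay 0.79 above the highest dKO array. Without control 1 and dKO 1 together the adjusted p was 0.0691.

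Gart encodes a protein with several activities early in the ring's assembly. It stood at 9.33, 9.45 and 9.08 in control and at 7.32, 8.45 and 8.26 in dKO, with dKO 1 the lowest array. It fell by 1.28 ± 0.29 or 2.43-fold (adjusted p = 0.0312). Its 3 other probe sets, all dimmer, changed by -0.16 to -0.52 and did not pass, and with the mean of its probe sets Gart had an adjusted p of 0.0715. The call was lost when any of the 3 control arrays or dKO 3 was left out (highest adjusted p = 0.123, without control 2).

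Paics encodes the enzyme of the middle of the pathway, which adds carbon dioxide and then aspartate. Its dKO arrays were the tightest of the 8, at 10.65, 10.66 and 10.69, against 11.29, 11.47 and 11.27 in control. It fell by 0.68 ± 0.16 or 1.60-fold (adjusted p = 0.0397). Its dimmer probe sets fell further, by 0.87 and 1.17. Of the arrays left out singly, only dKO 3 left the call in place, and the highest adjusted p was 0.157, without control 2.

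Ppat encodes the amidotransferase that commits PRPP to purine synthesis, and its annotated span overlaps that of Paics by 277 bases, with the genes running in opposite directions. It stood at 9.85, 9.58 and 9.65 in control and 9.16, 9.27 and 8.75 in dKO, so the groups did not overlap. Its log2 fold change of -0.63 ± 0.19 missed the threshold (adjusted p = 0.103), with a 95% interval from -1.07 to -0.20. Adsl, which cleaves fumarate off the intermediates, had -0.48 ± 0.17 (adjusted p = 0.158), and its arrays did not overlap either. Pfas, which adds a nitrogen from glutamine, had -0.49 ± 0.28 (adjusted p = 0.431) with overlapping arrays, from 8.66 to 9.50 in control and 8.21 to 9.10 in dKO.

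**Figure D2:**
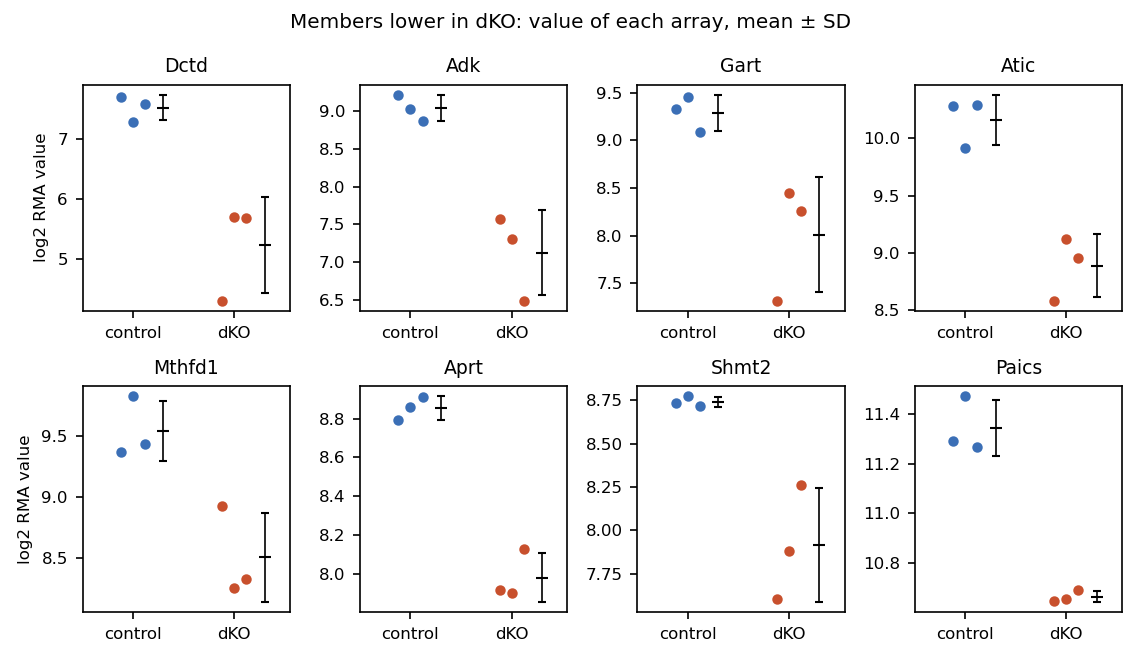
Log2 RMA value of each array (points; control in blue, dKO in orange) for the 8 genes that were lower in dKO, with the mean ± SD of 3 arrays beside the points; each panel has its own vertical axis, which does not start at 0. In every panel all 3 dKO arrays lie below all 3 control arrays, with the widest gap between the groups for Dctd (1.59) and the narrowest for Mthfd1 (0.45).

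The genes of PRPP supply had negative log2 fold changes, and 0 of 2 passed. Prps2, a PRPP synthetase, stood at 10.25, 9.53 and 10.15 in control and 9.44, 9.61 and 8.41 in dKO, with dKO 3 far below the rest. Its log2 fold change was -0.83 ± 0.33 (adjusted p = 0.21), and its groups overlapped. Prps1, its paralog, had -0.43 ± 0.18 (adjusted p = 0.232), with dKO arrays from 7.99 to 8.41 all below the control arrays at 8.65 to 8.75. Both had an unadjusted p under 0.05, as did 9.14% of all genes in that direction.

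Beyond IMP, the 3 measured genes of the AMP and GMP branches had a median log2 fold change of -0.12, and 0 passed (0 at an unadjusted p under 0.05). Adss, which starts the branch to AMP, stood at 8.25, 8.19 and 8.35 in control and 7.94, 8.03 and 7.96 in dKO (-0.28 ± 0.16, adjusted p = 0.412). Gmps, which makes GMP, had -0.12 ± 0.16 (95% interval from -0.49 to 0.25). Impdh1, an IMP dehydrogenase of the GMP branch, had 0.22 ± 0.20, with dKO 3 at 6.71 and the other 5 arrays between 6.08 and 6.19.

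In de novo pyrimidine synthesis all 5 genes had negative values and 0 passed. At an unadjusted p under 0.05, 2 were lower (9.14% of all genes were). The median log2 fold change was -0.37. In 3 of the 5 genes (60%) all dKO arrays lay below all control arrays, against 10.7% of all genes. Cad, whose product carries out the opening steps, stood at 8.37, 7.78 and 7.64 in control and 7.04, 7.07 and 7.28 in dKO. Its log2 fold change of -0.80 ± 0.22 missed the threshold (adjusted p = 0.0692), and its other probe sets had -0.71 and -0.75. Cad passed when dim genes were left out (adjusted p = 0.0421) and with the mean of its probe sets (0.0311).

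Umps, which makes UMP from orotate, had control arrays from 8.48 to 8.99 and dKO arrays from 8.10 to 8.20 (-0.54 ± 0.19, adjusted p = 0.15). Dhodh, the mitochondrial step before it, had -0.37 ± 0.22, although its dimmer probe set had 0.03. The CTP synthetases Ctps and Ctps2 had -0.30 ± 0.18 and -0.26 ± 0.18. The 95% intervals of Dhodh, Ctps and Ctps2 all reached past 0.

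**Figure D3:**
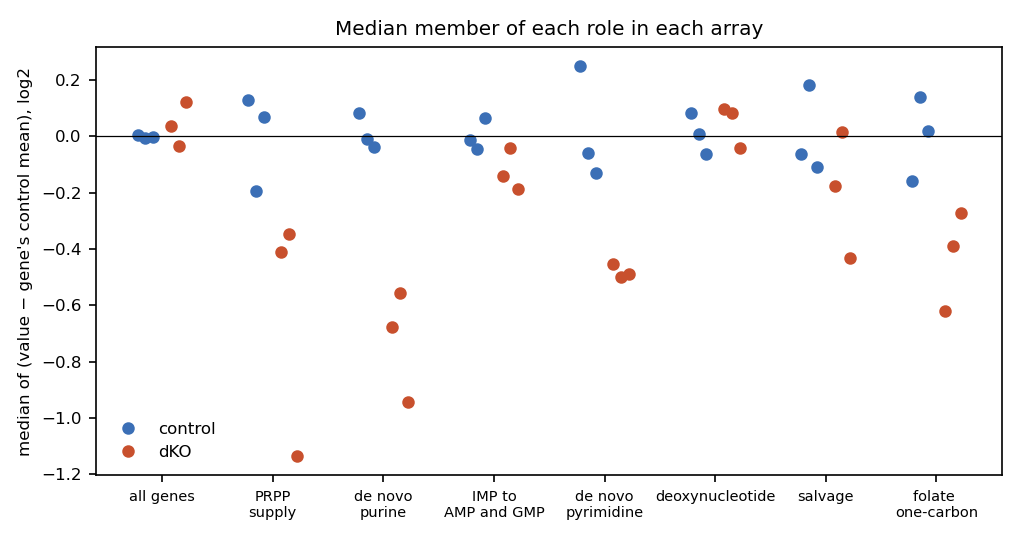
Median over the genes of each role of the value minus the gene's mean in the control arrays (log2), 1 point per array, control in blue and dKO in orange, with all 18193 genes at the left. For de novo purine genes the dKO arrays lie between -0.94 and -0.56 and for de novo pyrimidine genes between -0.50 and -0.45, below the control arrays, while for deoxynucleotide genes the dKO arrays lie between -0.04 and 0.10, within the range of control arrays or next to it.

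The deoxynucleotide genes differed from the ring-building steps in value, with a median log2 fold change of 0.09; the difference between roles was not tested. Neither main subunit of ribonucleotide reductase passed. The large subunit gene Rrm1 stood at 11.30, 11.06 and 11.11 in control and 11.37, 11.13 and 11.13 in dKO (0.06 ± 0.17, 95% interval from -0.33 to 0.44). The small subunit gene Rrm2 was the member with all dKO arrays above all control arrays, at 11.49, 11.47 and 11.53 against 11.22, 11.17 and 10.98. Rrm2 had 0.37 ± 0.16, did not pass (adjusted p = 0.263), and had values of 0.38 and 0.44 in its other probe sets. Rrm2b, the small subunit that p53 induces, had 0.13 ± 0.25, with -0.43 to 0.02 in its dimmer probe sets.

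Tyms, which methylates dUMP to dTMP with a folate cofactor, had 0.12 ± 0.27, and all 4 of its probe sets had positive values. Dut, which hydrolyses dUTP and so supplies dUMP, had -0.04 ± 0.17. The nucleoside diphosphate kinases Nme1 and Nme2 had 0.12 ± 0.16 and -0.37 ± 0.16, the latter with dKO arrays from 11.33 to 11.48 below control arrays from 11.68 to 11.88 (adjusted p = 0.271). The neighbours Nme1 and Nme2 are similar in sequence, so their probe sets may share signal. The 95% intervals of Tyms and Dut ran from -0.48 to 0.71 and from -0.41 to 0.33.

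Dctd was the exception among them and had the lowest fold change of all members. It encodes dCMP deaminase, which turns dCMP into dUMP for thymidylate synthesis. It stood at 7.70, 7.29 and 7.58 in control and at 4.30, 5.70 and 5.69 in dKO, so dKO 1 was the lowest array. It fell by 2.29 ± 0.35, or 4.90-fold (adjusted p = 0.00553), and was measured by a single probe set. In dKO 1 Dctd lay below the lower quartile of all genes (4.71), and RMA understates fold changes of dim probe sets. Leaving out single arrays moved the log2 fold change between -2.53 and -1.83 and the adjusted p up to 0.022.

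In salvage, the genes that recover adenosine and adenine fell (28.6% of this role, against 2.85% of all genes), and the other 5 did not pass. Adk, adenosine kinase, which phosphorylates adenosine to AMP, stood at 9.21, 9.03 and 8.87 in control and 7.57, 7.31 and 6.50 in dKO. It fell by 1.91 ± 0.27, or 3.76-fold (adjusted p = 0.00378), and the gap between the groups was 1.30. Of its 6 probe sets, 5 fell, by 0.83 to 2.09, and the dimmest had 0.07. Aprt, adenine phosphoribosyltransferase, stood at 8.79, 8.86 and 8.91 in control and 7.92, 7.90 and 8.13 in dKO. It fell by 0.87 ± 0.16, or 1.83-fold (adjusted p = 0.0142), and its dimmer probe set had -0.43 and did not pass. Aprt lost its call without control 2, control 3 or dKO 1, with adjusted p up to 0.0725.

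Hprt, which salvages hypoxanthine and guanine, had the highest fold change of all members, at 0.64 ± 0.40 (adjusted p = 0.481). That value rests on dKO 3, which stood at 12.06 while the other 5 arrays lay between 10.20 and 10.50; without dKO 3 it was 0.08. The thymidine kinases, cytosolic Tk1 and mitochondrial Tk2, had -0.24 ± 0.25 and -0.20 ± 0.21. In Tk1 dKO 3 again stood apart, at 8.88 against 7.99 and 8.02 in dKO 1 and dKO 2, and without it the value was -0.53. Deoxycytidine kinase Dck and the mitochondrial deoxyguanosine kinase Dguok had 0.00042 ± 0.24 and 0.16 ± 0.19.

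Of the 5 folate genes 2 fell (40%, against 2.85% of all genes), the cytosolic Mthfd1 and the mitochondrial Shmt2, and 0 rose. Mthfd1 encodes the enzyme that makes the formyl folate used by the products of Gart and Atic. It stood at 9.37, 9.83 and 9.43 in control and 8.92, 8.25 and 8.33 in dKO. It fell by 1.04 ± 0.23, or 2.06-fold (adjusted p = 0.0288), and its other probe sets fell by 1.06 and 1.11. Of the arrays left out singly, only dKO 1 left the call in place, and the highest adjusted p was 0.12, without control 2. It also held without control 1 and dKO 1 together (0.0257).

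Shmt2 encodes an enzyme that takes a carbon from serine. It stood at 8.73, 8.77 and 8.71 in control and 7.61, 7.88 and 8.26 in dKO. It fell by 0.82 ± 0.20, or 1.77-fold (adjusted p = 0.0434). The control arrays spread over less than 0.1 and the dKO arrays far more, with an SD of 0.33. Its 3 dimmer probe sets had -0.27 to -0.60 and did not pass, and of the arrays left out singly only dKO 3 left the call in place (highest adjusted p = 0.142, without control 2).

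The remaining folate genes did not pass by their brightest probe set. Mthfd1l, the mitochondrial formate-releasing enzyme, had -0.49 ± 0.20 (adjusted p = 0.218) with groups that did not overlap. Mthfd2, the mitochondrial dehydrogenase and cyclohydrolase, went the other way in value, at 7.21, 7.92 and 7.67 in control and 8.27, 7.92 and 7.73 in dKO (0.37 ± 0.23, adjusted p = 0.472). Shmt1, the cytosolic counterpart of Shmt2, differed between its probe sets. The brightest had 0.16 ± 0.19, whereas a dimmer probe set fell by 1.19 ± 0.17 (adjusted p over all probe sets = 0.00675) with control arrays at 7.95, 7.97 and 8.17 and dKO arrays at 6.87, 6.98 and 6.67. The other Shmt1 probe sets had -0.50 and -0.26, so no single direction can be given for Shmt1.

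**Figure D4:**
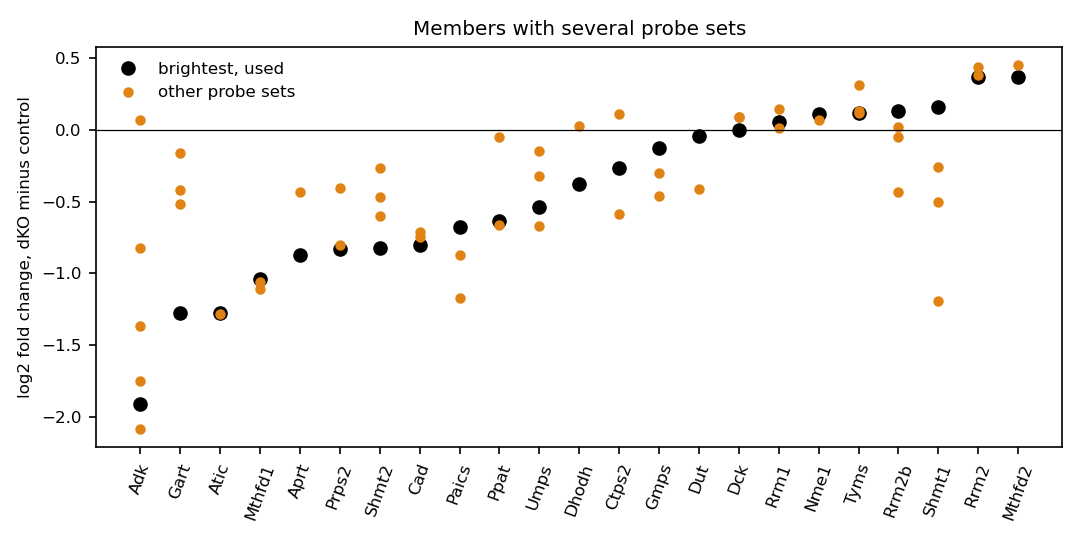
Log2 fold change (dKO minus control, vertical axis) of every probe set of the 23 members that have several, ordered by the brightest probe set (black); other probe sets are in orange. In 18 of the 23 all probe sets lie on the same side of 0; Adk, Dhodh, Ctps2, Rrm2b and Shmt1 have probe sets on both sides.

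Over all 85 probe sets of the members, 16 were lower and 0 higher, adjusted over all 34945 probe sets with 1 symbol, of which 2.2% were lower. At this level Adk contributed 5 of the 16, Mthfd1 3, Atic and Paics 2 each, and Shmt1, Aprt, Gart and Dctd 1 each. The brightest probe sets of Paics and Shmt2 had adjusted p of 0.0533 and 0.0581 over all probe sets.

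Genes around the members were read from 3 further lists of the same pathways, and the shares of all genes given above (2.85% lower and 3.12% higher after adjustment, 9.14% and 9.1% at an unadjusted p under 0.05) apply to their counts. In folate, serine, glycine and methionine supply 2 of 19 genes (10.5%) fell and 0 rose, with a median of -0.34, and 6 were lower and 0 higher at an unadjusted p under 0.05. Phgdh, the opening enzyme of serine synthesis, fell by 1.14 ± 0.22 (adjusted p = 0.0155), from control arrays at 10.00, 10.47 and 10.40 to dKO arrays at 8.88, 9.09 and 9.49. Gcsh, a carrier protein of the glycine cleavage system, fell by 0.88 ± 0.19 (adjusted p = 0.0295). Mthfs, which recycles formyl folate, and Ahcy, which clears S-adenosylhomocysteine, had -0.92 ± 0.23 and -0.61 ± 0.16 and missed the threshold (0.0509 and 0.0599). Phgdh kept its call only without control 1 or dKO 3 and Gcsh only without control 2 or dKO 2 among single arrays, so the number lower was 0 or 1 there.

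Among nucleotide kinases and PRPP partners 1 of 13 (7.69%) fell and 0 rose, with 3 lower and 1 higher at an unadjusted p under 0.05, so the share lower rests on a single gene. The 1 was Prpsap1, a protein associated with PRPP synthetase, which fell by 0.80 ± 0.16 (adjusted p = 0.0203) and lost its call without any control array or dKO 1, with adjusted p up to 0.0935. Uck2, which salvages uridine and cytidine, had -0.98 ± 0.32 (adjusted p = 0.122), with control 3 at 10.62 above the other control arrays at 9.29 and 9.53. Ak1 and Ak4, adenylate kinases, had 0.71 ± 0.18 and -0.56 ± 0.24 and did not pass (adjusted p = 0.0548 and 0.264). Ak1 passed without dKO 2 (0.0448) and Ak4 without dKO 3 (0.0245).

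Genes of nucleotide breakdown and transport went in both directions, 3 of 18 (16.7%) higher and 1 (5.56%) lower, with a median of 0.15. At an unadjusted p under 0.05, 5 were higher and 2 lower. Gda, guanine deaminase, stood at 4.996, 6.46 and 6.44 in control and 8.81, 8.33 and 7.82 in dKO and rose by 2.36 ± 0.40 or 5.12-fold (adjusted p = 0.0093). Upp1, uridine phosphorylase, stood at 4.72, 4.76 and 4.84 in control and 6.18, 6.18 and 6.46 in dKO and rose by 1.50 ± 0.17 or 2.83-fold (adjusted p = 0.00121). In control Upp1 lay near the lower quartile of all genes (4.71), and RMA understates fold changes of dim probe sets. Nt5c3, a nucleotidase for pyrimidine monophosphates, rose by 0.95 ± 0.18 (adjusted p = 0.0159). Of single arrays left out, its call held only without control 1 or dKO 3, and the highest adjusted p was 0.0789, without control 3. Ampd3, an AMP deaminase, fell by 1.64 ± 0.26 or 3.12-fold (adjusted p = 0.007). Its dKO arrays lay from 4.74 to 5.49, the lowest of them also near that quartile. The calls of Gda, Upp1 and Ampd3 held with each single array left out.

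**Figure D5:**
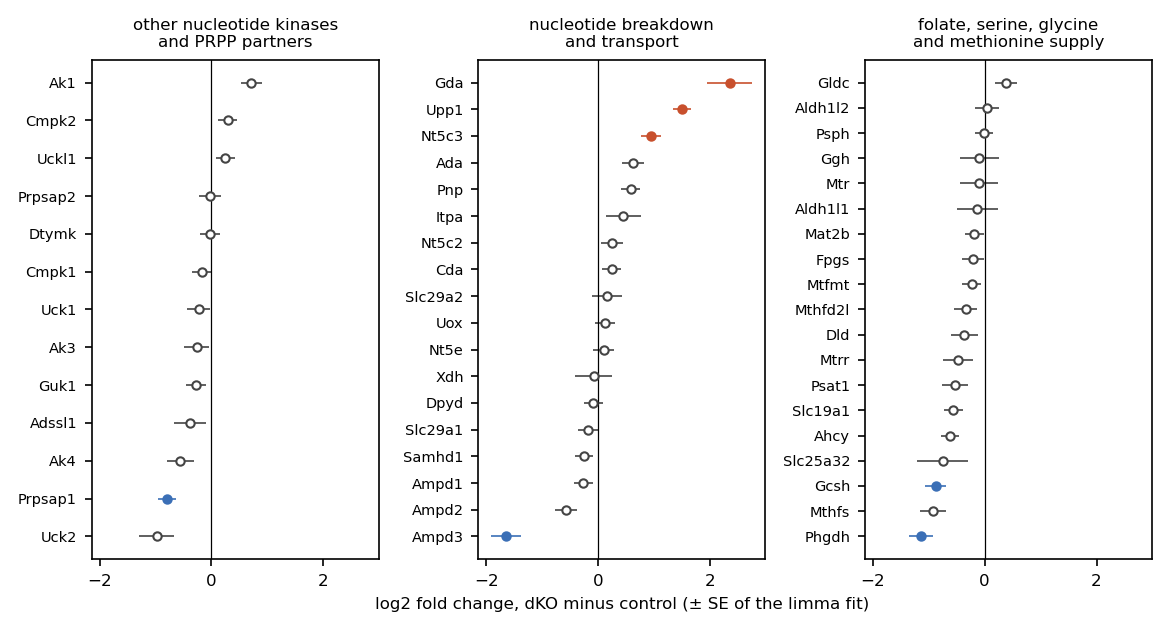
Log2 fold change (dKO minus control, horizontal axis) with its standard error from limma for the 13, 18 and 19 measured genes of the 3 further lists. Filled blue points were lower and filled orange points higher in dKO; open points did not pass. The breakdown and transport list holds the risen genes Gda, Upp1 and Nt5c3, and the supply list has 17 of its 19 genes left of 0.

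Other features of the arrays moved with the groups. Unless stated, marker counts are those of the main fit at an adjusted p under 0.05. At that threshold 2.85% of all genes were lower and 3.12% higher. T and NK cell markers were higher in 9 of 12 genes (mean log2 level 6.58 to 7.01 in control and 8.09 to 8.23 in dKO). Of the 3 that did not pass, Cd3e and Cd3g had 0.97 and 1.49 and Cd247 had -0.45. Megakaryocyte markers were higher in 6 of 9 (7.51 to 7.61 and 9.09 to 9.37). Mast cell markers were higher in 3 of 6 (7.04 to 7.29 and 8.00 to 9.05) and erythroid markers in 2 of 8 (7.54 to 7.82 and 8.22 to 8.67). Monocyte and granulocyte markers were lower in 4 of 11 (8.73 to 9.46 and 6.57 to 7.90), namely Csf1r, Ly86, Irf8 and Lyz2. Elane, Mpo, Prtn3, Ctsg, S100a8 and S100a9 had -2.04 to -1.10 and did not pass (adjusted p from 0.0533 to 0.376). Itgam had 0.24 and did not pass either. B cell and lymphoid progenitor markers were lower in 4 of 11 (7.11 to 7.69 and 6.01 to 6.49). These 4 were Flt3, Dntt, Rag1 and Rag2, and the other 7 did not pass. Of those, Cd79a, Cd79b and Pax5 had 0.40, 0.26 and 0.10. Ebf1, Il7r, Vpreb1 and Igll1 had -0.21, -0.21, -0.67 and -0.73. Array values have no true zero, so no marker is listed at 0. The part of these cell types in the members' results was not tested, and in such bulk samples fewer cells of a type and less RNA per cell cannot be told apart. S phase genes, which mark dividing cells as Rrm2, Tk1 and Tyms do, passed in 0 of 21 by limma (2 lower and 1 higher at an unadjusted p under 0.05), with mean levels of 9.85 to 9.93 in control and 9.84 to 9.90 in dKO. Of 18 G2 and mitosis genes 1 was lower (9.72 to 9.95 and 9.57 to 9.69), and 0 without control 1, control 2, dKO 1 or dKO 2. At an unadjusted p under 0.05, 3 of these were lower and 0 higher, against 9.14% and 9.1% of all genes. The dKO arrays all lay below the control arrays for 6 of the 18 (33.3%), against 10.7% of all genes. This was so for 5 of the 21 S phase genes (23.8%). The dKO arrays all lay above for 0 G2 and mitosis genes and 2 S phase genes, against 12.7% of all genes. The erythroid count was 0 without control 2, control 3 or dKO 1. The monocyte and granulocyte count was 7 without control 1 and dKO 1 together and 8 with the replicate block. Without the moderated variance the counts were 1 for monocytes and granulocytes, 1 for T and NK cells and 3 for megakaryocytes. They were 0 for the mast cell, the erythroid and the B cell and lymphoid progenitor markers. The difference between the 3′ and middle control probe sets of Gapdh, a sign of RNA quality, was 1.45 to 1.52 in control and 1.71 to 1.85 in dKO. That of Actb was 0.16 to 0.22 and 0.18 to 0.22. Between the 3′ and 5′ probe sets it was 2.11 to 2.32 in control and 2.34 to 2.73 in dKO for Gapdh. For Actb it was 0.17 to 0.24 and 0.09 to 0.30. The part of RNA quality was not tested.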

How the data were processed

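The deposited values are log2 expression values per Affymetrix probe set that the authors made with RMA, per the submitters' processing notes; its version and whether all arrays shared one run were not given in the sources used here. Per the labels' protocols, RNA was amplified in 2 rounds with a Nugen kit. Array medians lay between 5.91 and 5.94. Of 45101 probe sets, 34945 had 1 symbol in the platform annotation, and 34741 of these had it updated through their gene identifier to RefSeq (GRCm38.p6). The brightest probe set represented each gene. Groups were compared with a two-sided limma fit (version 3.58.1, R 4.3.3; lmFit and eBayes with a single group term). P-values were adjusted by Benjamini-Hochberg over 18193 genes, with a threshold of 0.05. Errors are the SD over 3 arrays or the SE of the fit, and intervals are 95% intervals of the fit; their precision is limited by how few arrays there are. The steps were tested on simulated data. The members, role groups and lists were chosen with earlier results of these data known, and no list was tested as a set. Full values are given for members that passed and, in each role, for the smallest p in each direction; up to 4 genes with the smallest p are named from each further list. Alternatives covered the filter on dim genes, probe set choice, scaling, variance model, a replicate block and left-out arrays; those for the further lists were chosen after seeing the data. Plots used matplotlib 3.10.9.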

Additional observations from a re-analysis of the deposited data

How the results depend on the processing

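Adjusted p ran from 0.0288 to 0.0434 for Gart, Mthfd1, Paics and Shmt2, and from 0.00378 to 0.0142 for Adk, Dctd, Atic and Aprt. With 3 arrays a group, the calls of Gart, Mthfd1, Paics, Shmt2 and Aprt were each lost when some single arrays were left out. The number of members lower in dKO was 8 and became 5 with the replicate block, 0 without the moderated variance, 3 without control 1 and dKO 1 together, and 3 to 6 with single arrays left out; it stayed between 6 and 9 under the other alternatives. The number higher was 0 under all alternatives. Of all genes, 519 were lower in the main fit, 477 with the block, 24 without the moderated variance and 275 without control 1 and dKO 1 together. With single arrays left out, 236 to 464 of all genes were lower. Same-numbered arrays hardly deviated together over all genes (r of 0.056, -0.00045 and 0.019, against -0.052 to 0.038 in the other pairs). The number was therefore not taken as a pairing in the main fit. Such an r over all genes cannot show that these arrays share nothing, and control 1 and dKO 1 both had Xist signal. Under the block Paics (adjusted p = 0.0852), Shmt2 (0.0648) and Mthfd1 (0.0519) did not pass. The probe sets used for Aprt and Shmt2 are of the _s_at and _x_at types. Without such probe sets Aprt (-0.43, adjusted p = 0.307) and Shmt2 (-0.47, adjusted p = 0.251) did not pass. The median of deoxynucleotide genes was -0.0030 with the mean of probe sets and -0.023 to 0.094 without single arrays, and that of the AMP and GMP branches -0.28 and -0.19 to -0.082. Among the members, signs turned in genes that had not passed. With the mean of probe sets these were Rrm2b (-0.080) and Shmt1 (-0.45), without _x_at and _s_at probe sets Dhodh (0.032), with centred arrays Dck (-0.010), and without both pools with Xist signal Dck (-0.13), Dut (0.068) and Rrm2b (-0.16). Without single arrays the values ran from -0.14 to 0.30 for Rrm2b, -0.19 to 0.25 for Dck, -0.081 to 0.33 for Tyms, -0.024 to 0.13 for Rrm1 and -0.093 to 0.035 for Dut. Called genes in folate and serine supply (2) numbered 4 with trend and robust or the mean of probe sets, 1 with the block, 0 without the moderated variance or without both pools with Xist signal, and 0 to 1 without single arrays. Those among nucleotide kinases (1) numbered 2 with the mean of probe sets and 0 to 2 without single arrays. They numbered 0 with the block, without the moderated variance or without both pools. Those in breakdown and transport (4) numbered 2 under the filter on dim genes, which removed Upp1 and Ampd3 because their means lay below 6. They numbered 1 without the moderated variance and 3 to 4 without single arrays. Apart from that removal, the cause of these changes was not tested.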
